A study of Mus musculus with 72 samples.

Results

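Krüppel-like factors (KLFs) are zinc-finger transcription factors that bind GC-rich and CACCC-type sites in promoters, the sites that they share with the SP factors. Several are immediate-early genes, whose transcription answers growth factor, stress or receptor signals within minutes to hours, and others brake the cell cycle or hold a cell in a differentiated state. The family is commonly divided by its partners: activators that recruit acetyltransferases (Klf2, Klf4, Klf5, Klf6 and Klf7 among them), repressors that bind CtBP (Klf3) and repressors that bind the Sin3a complex (Klf9, Klf10, Klf11 and Klf13).

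The 10 named Klf genes were taken by symbol from a table of 50600 genes, whose Ensembl identifiers were matched to gene symbols, and all 10 were found in it. They were followed in 72 RNA-seq libraries, 3 for each of 4 treatments in each of 6 mouse melanoma cell lines. All lines carry Tyr::NRASQ61K, an activated NRAS driven by the tyrosinase promoter. Lines 1057 and 1064 are female, lack Cdkn2a, carry Tyr::CreA and the deleted Cdh1 allele, and express Grpr, the receptor for gastrin-releasing peptide (GRP), from their own gene. Line 1181 is male and Cdkn2a-/-, with Cdh1 alleles of the same label but no Cre, and line 1014 is female with neither allele listed. Each of these 2 lines was used with a CMV-driven Grpr and tGFP plasmid (1181-Grpr and 1014-Grpr) or with CMV-driven tGFP alone (1181-Ctrl and 1014-Ctrl), as transfected and selected cells. Cells were kept for 18 h in 0.5% serum and then for 4 h with vehicle (mock, 0.1% DMSO), 10 nM GRP, 1 µM RC-3095, which blocks GRPR (RC), or both agents at those doses (GRP+RC). Nothing in the labels ties the 3 replicates to separate cultures, so p-values measure only the spread between these libraries.

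Library totals ran from 19512882 to 46862053 counts, and 3 counts correspond to at most 0.154 CPM (counts scaled to a fixed library total). The melanocyte genes Mitf, Sox10 and Tyr were present in the mock libraries of every line, at a mean of at least 204, 862 and 693 TPM (transcripts scaled to a fixed total, per length), whereas Tyrp1 was near-absent in 1181-Ctrl (2.67 TPM). Summed over 7 melanocyte markers the mock libraries held 7830 to 52000 TPM, against 8.18 to 49.9 TPM over 9 markers of other cell types. Among the latter, Ptprc did not exceed 0.01 TPM and Pecam1 did not exceed 0.217 TPM. The other immune and endothelial markers were not so low. Cd68 lay between 3.68 TPM (1057) and 49.3 TPM (1181-Ctrl), and Cdh5 reached 3.33 TPM in 1057. Grpr lay at 273 to 276 CPM in mock-treated 1057, 780 to 1270 in 1064, 108 to 141 in 1014-Grpr and 8.46 to 17.9 in 1181-Grpr. Under GRP it lay at 398 to 632 CPM in 1014-Grpr and at 469 to 516 in 1064. Cdh1 did not exceed 0.117 CPM in 1057 and 1064 but lay at 16.7 to 23.7 CPM in mock-treated 1181-Ctrl. The library labelled 1014-Ctrl mock replicate 2 held 1165 Grpr counts where the other mock libraries of that line held 0, and the library labelled 1181-Grpr GRP+RC replicate 2 held 0, which allows at most 3. Both go against their labels, and results that rest on them are given with and without them.

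On the TPM scale, which allows genes to be compared, Klf6 led the mock libraries in 4 of the 6 lines, at 77.5 TPM in 1064, 53.6 in 1181-Grpr, 81.4 in 1014-Grpr and 66.6 in 1014-Ctrl. Klf13, among the Sin3a-binding members, led in 1181-Ctrl (63.4 TPM), and Klf10, known as a TGFβ-inducible early gene, led in 1057 (64.0 TPM). The lowest members were Klf2, a gene of vascular and lymphocyte quiescence, at 1.02 to 2.78 TPM, and Klf5, an epithelial proliferation factor, at 0.193 to 6.09 TPM. The 10 members summed to between 247 TPM (1181-Grpr) and 295 TPM (1057).

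**Figure D1:**
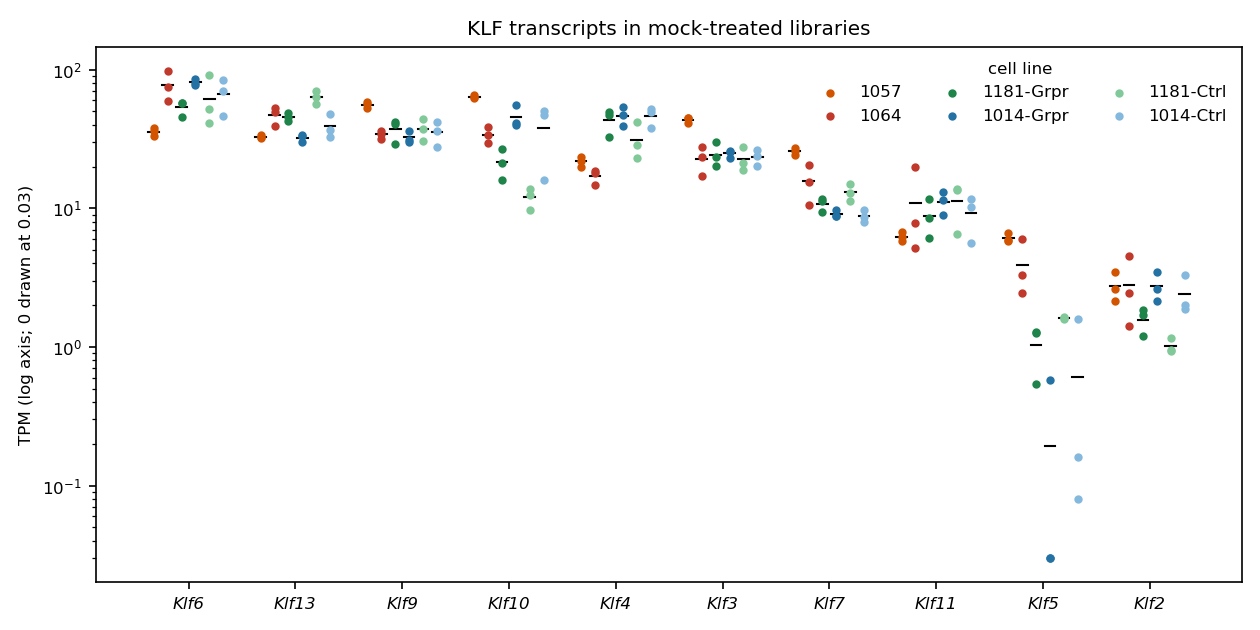
TPM (log axis, with 0 drawn at 0.03) of each Klf gene in the 3 mock-treated libraries of each line (points, coloured by line), with short bars at the means. Klf6, Klf13, Klf9, Klf10, Klf4 and Klf3 sit between 12 and 81.4 TPM in every line (means of 3), and Klf5 ranges from 0.193 TPM in 1014-Grpr to 6.09 TPM in 1057.

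Between lines, 1057 at rest had the highest CPM of Klf3, a CtBP-dependent repressor, of Klf7, a factor of neuronal differentiation, and of Klf9, a glucocorticoid-responsive repressor, and it had the lowest CPM of Klf6. Klf3 lay at 158, 166 and 165 CPM in its mock libraries, and no mock library of another line was above 101. Klf7 lay at 67.1, 69.0 and 72.1 CPM there, at 29.7 to 51.7 CPM in 1064, and at most 30.6 CPM in the other lines. Klf10 spanned the widest range among the well-expressed members, from 64.7 CPM ± 0.381 (SD, n = 3) in 1057 to 9.43 ± 1.66 in 1181-Ctrl, a ratio of means of 6.86. Klf5 was at 3.48 CPM ± 0.190 in 1057 and at 0, 0 and 0.265 CPM in the 3 mock libraries of 1014-Grpr, where the depth limits what can be said.

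Tested by edgeR over the mock libraries of all lines, 35 of 150 comparisons of a member between a pair of lines passed both an adjusted p of 0.05 and a 2-fold difference, the rule used for a call throughout. Over all genes the same rule called 22.6% of comparisons. Line 1057 took part in 50 of the 150 comparisons and in 19 of the 35 calls. In its 5 pairs together the same thresholds called 31.8% of all gene comparisons. Klf5 was called in 8 of its 15 pairs, Klf10 in 7, Klf2 in 6 and Klf7 in 5, and Klf11 and Klf13 in 0 of 15. The Klf5 calls that involve 1014-Grpr or 1014-Ctrl rest on very few counts. Its mock libraries held 0, 0 and 6 counts in 1014-Grpr and 2, 18 and 1 in 1014-Ctrl, the 18 in the doubted library. Klf5 was too low to be tested within either line and passed the filter of the joint fit through lines where it was higher. Within the order of lines by mean CPM, 5 of 50 neighbouring pairs differed at an adjusted p under 0.05: Klf3, Klf7 and Klf9 between 1057 and 1064, Klf7 between 1064 and 1181-Ctrl, and Klf13 between 1064 and 1181-Grpr. All other neighbours did not differ beyond their spread. Without the doubted mock library the calls numbered 40, a count given without its share of all genes and so not a result about the members. No member was called between the Grpr and Ctrl versions of either line. Between 1181-Grpr and 1181-Ctrl, the log2 differences of Klf10 (0.89, SE 0.318) and Klf13 (-0.42, SE 0.129) had adjusted p-values of 0.102 and 0.056. Without the doubted mock library the adjusted p-values were 0.00301 and 0.00923. That library belongs to another line but is part of the same fit, and how it moves these values was not tested.

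The comparison of GRP with mock asks which genes the ligand changes through its receptor. Klf6, an immediate-early KLF described as a tumour suppressor, was called higher in 3 of the 4 Grpr-expressing lines, and Klf4, a pluripotency factor and cell-cycle brake, in 1. Klf9 rose in those 3 lines by less than 2-fold, and Klf11, a TGFβ-inducible repressor, fell in 1057 and 1014-Grpr. In 1181-Grpr and the Ctrl lines no member rose or fell. Here rose and fell mean an adjusted p under 0.05, and called means that the change was also over 2-fold.

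For the 3 members that rose in all 3 responding lines, the 250 bases before the RefSeq transcription start (GRCm38.p6) are shown because they are the sequences at which a shared regulation would first be looked for. They read 5′ to 3′ on the gene's strand, with matches on either strand to the CRE core TGACG, the AP-1 site TGANTCA, the CArG box, the GC box GGGCGG or the CACCC box CCACCC in capitals.
Klf6 (chr13:5861239-5861488, plus strand): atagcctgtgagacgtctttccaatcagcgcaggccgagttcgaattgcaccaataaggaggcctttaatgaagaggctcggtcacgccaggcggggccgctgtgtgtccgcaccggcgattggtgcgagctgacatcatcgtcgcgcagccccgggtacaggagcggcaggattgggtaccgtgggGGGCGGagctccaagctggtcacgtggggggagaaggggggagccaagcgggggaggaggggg
Klf4 (chr4:55532476-55532725, minus strand): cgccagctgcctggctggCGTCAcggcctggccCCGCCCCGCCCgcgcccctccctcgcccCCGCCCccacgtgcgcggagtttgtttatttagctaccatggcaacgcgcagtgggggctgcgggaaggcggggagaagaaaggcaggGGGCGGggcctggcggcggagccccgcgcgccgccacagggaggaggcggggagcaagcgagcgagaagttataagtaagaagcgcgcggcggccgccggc
Klf9 (chr19:23140976-23141225, plus strand): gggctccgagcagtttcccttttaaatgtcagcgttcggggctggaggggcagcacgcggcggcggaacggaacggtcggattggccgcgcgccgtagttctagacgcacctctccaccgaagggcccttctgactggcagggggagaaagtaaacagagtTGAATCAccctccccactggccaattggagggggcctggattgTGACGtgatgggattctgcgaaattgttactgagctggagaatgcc

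Klf6 held 1 GC box, starting at -63 from the start site, and no other of these motifs. Klf4 held a CRE core at -232 and GC boxes at -217, -212, -189 and -101, the first 2 of which overlap by a base. Klf9 held a CRE core at -46 and an AP-1 site at -89 and no GC box. Among 32851 RefSeq promoter windows of this length, 17.8% held the CRE core, 6.75% the AP-1 site, 1.47% the CArG box, 32.7% the GC box and 28.1% the CACCC box. The 3 windows thus had no motif in common, and a match or its lack is a description of these letters alone. Promoter entries were matched for 8 of the 10 members, without Klf5 and Klf10.

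Klf6 (chromosome 13, 5861482 to 5870394, GRCm38, plus strand) doubled in 1057. Its mock libraries lay at 54.2, 46.7 and 49.3 CPM and its GRP libraries at 106, 98.7 and 105 CPM. The groups did not overlap, and the log2 change was 1.07 (SE 0.0501, adjusted p = 2.90e-12, edgeR). Over 9 alternatives it lay between 0.98 and 1.11 and passed the adjusted p in all 9. The call thus lies close to the 2-fold line, and limma on TPM called 0 members in 1057. In 1064 the mock libraries lay at 126, 81.8 and 109 CPM and the GRP libraries at 298, 273 and 175 CPM. Replicate 3 had the lowest GRP value and the smallest rise, and the change was 1.24 (SE 0.264, adjusted p = 0.0233). In 1014-Grpr, Klf6 went from 95.2, 101 and 87.0 CPM to 177, 242 and 233 CPM, again without overlap, a change of 1.21 (SE 0.118, adjusted p = 1.77e-05). In 1181-Grpr, where Grpr was lowest among the Grpr-expressing lines, mock libraries at 64.2, 51.7 and 65.5 CPM stood beside GRP libraries at 70.2, 49.9 and 67.5 CPM. These overlapped fully, with a log2 difference of 0.05 (SE 0.195, adjusted p = 1.0). Whether the receptor level has a part in this was not tested.

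Klf4 (chromosome 4, 55527143 to 55532466, minus strand) was called in 1064 alone. There it went from 17.0, 18.3 and 15.5 CPM to 53.5, 51.6 and 34.7 CPM, with every GRP library above every mock library and a log2 change of 1.46 (SE 0.338, adjusted p = 0.0317). In 1014-Grpr it rose by less, from 45.5, 40.0 and 31.8 CPM to 51.7, 76.4 and 49.1 CPM (0.60, SE 0.163, adjusted p = 0.0154). The second GRP library was well above the others there, and without replicate 2 the change was 0.38 and no longer passed. In 1057 the rise was small but tight, from 20.7, 23.6 and 21.8 CPM to 26.9, 26.3 and 26.5 CPM (0.30, SE 0.0485, adjusted p = 4.60e-05). In 1181-Grpr, Klf4 lay at 26.4 to 40.7 CPM under mock and at 26.5 to 39.8 CPM under GRP.

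The calls in 1064 rest on few libraries with a wide spread. Without replicate 1 the adjusted p was 0.218 for Klf4 and 0.129 for Klf6, and without replicate 2 it was 0.292 and 0.303, while the log2 changes stayed at 1.03 or more. Libraries of 1064 with the same replicate number deviated together, and when the fit held that number as a block, the adjusted p was 0.00013 for Klf4 and 0.000177 for Klf6.

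**Figure D2:**
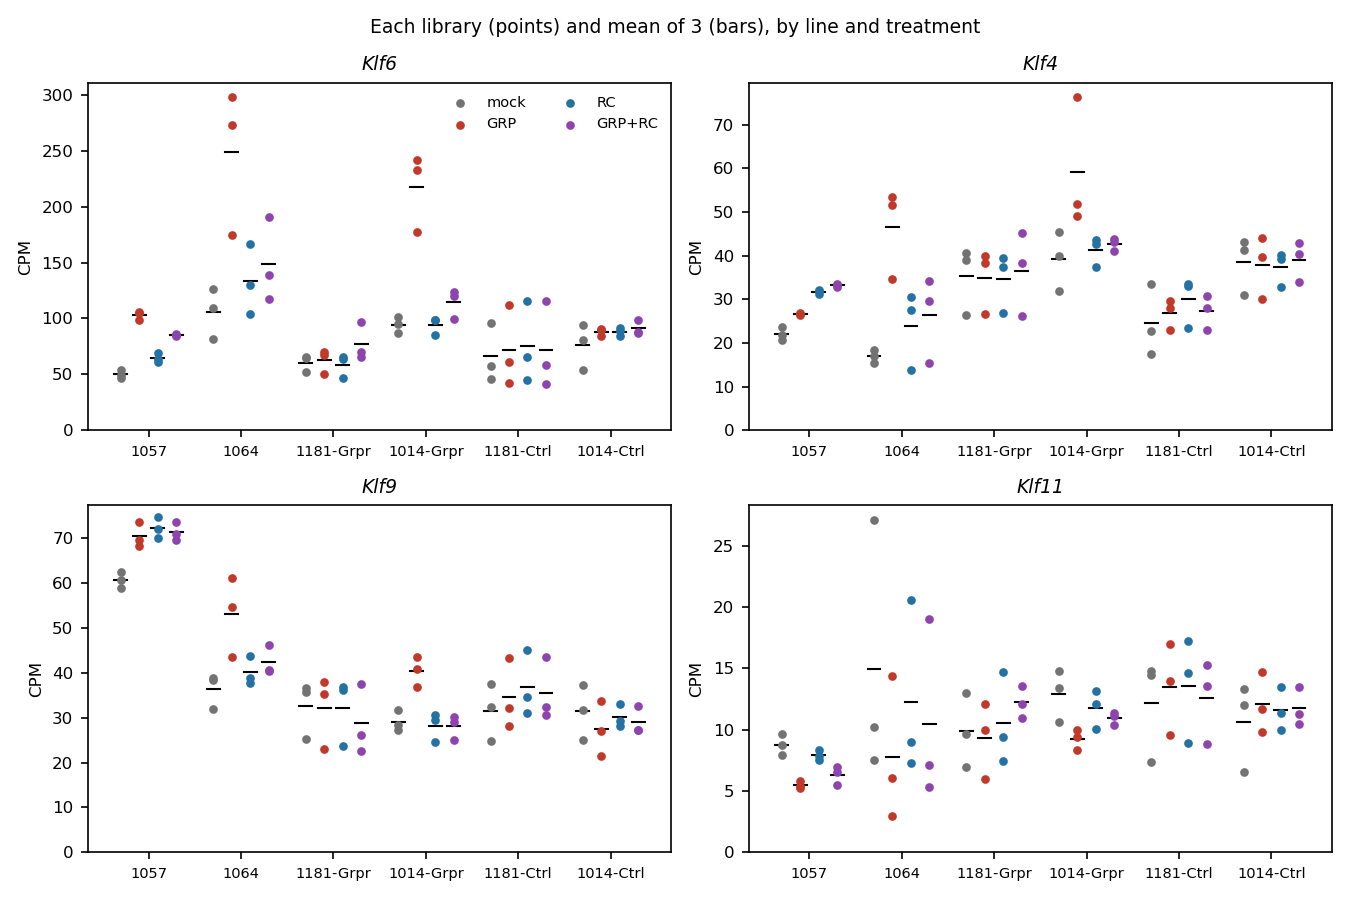
CPM (linear axis from 0) of Klf6, Klf4, Klf9 and Klf11 in each library (points, coloured by treatment), with short bars at the mean of 3, for the 6 lines. In 1057, 1064 and 1014-Grpr every GRP library of Klf6, Klf4 and Klf9 lies above every mock library, and in the Ctrl lines and 1181-Grpr the treatments overlap.

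Counted over the family, all 10 members passed an adjusted p of 0.05 in 1057, against 52.6% of the 14195 genes tested there. Of them 5 rose and 5 fell, against 25.7% and 26.9% of genes. With the fold criterion 1 of 10 was called, against 6.46% of genes in either direction and 4.96% upward. In 1064, 2 of 10 were called against 2.32% of 13794 genes (1.52% upward), and 3 of 10 passed the adjusted p alone against 6.38%. In 1014-Grpr, 1 of 9 was called against 4.01% of 13730 genes (3.16% upward), and 4 of 9 passed the adjusted p alone against 29% (Klf5 was too low to be tested). Under the block the members passing numbered 9 of 10 in 1064 and 7 of 9 in 1014-Grpr, against 43.5% and 53.6% of genes. Replicates of 1057 lay closer together than those of the other lines, so the counts passing do not rank the lines by size of effect. The median log2 change of the members was -0.01 in 1057, 0.38 in 1064 and 0.28 in 1014-Grpr, beside -0.01, -0.02 and -0.02 over all genes tested. Among genes with a mean of at least 1 CPM in the line, GRP libraries lay wholly above mock for 5 members in 1057 (26.7% of genes), 4 in 1064 (11.4%) and 3 in 1014-Grpr (21.9%). They lay wholly below mock for 5 (36.9%), 0 (13.6%) and 1 (21.7%). In 1181-Grpr, 1181-Ctrl and 1014-Ctrl, edgeR called 0 members and 0 genes. There, 0 members were under an unadjusted p of 0.05, where 0.31%, 0.261% and 4.09% of genes were, and DESeq2 and limma called 0 members. The log2 differences of members lay between -0.19 and 0.06 in 1181-Grpr, between -0.05 and 0.15 in 1181-Ctrl, and between -0.21 and 0.28 in 1014-Ctrl. Without the doubted mock library the last lay between -0.09 and 0.07, and Klf10 went from 0.28 to -0.09.

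**Figure D3:**
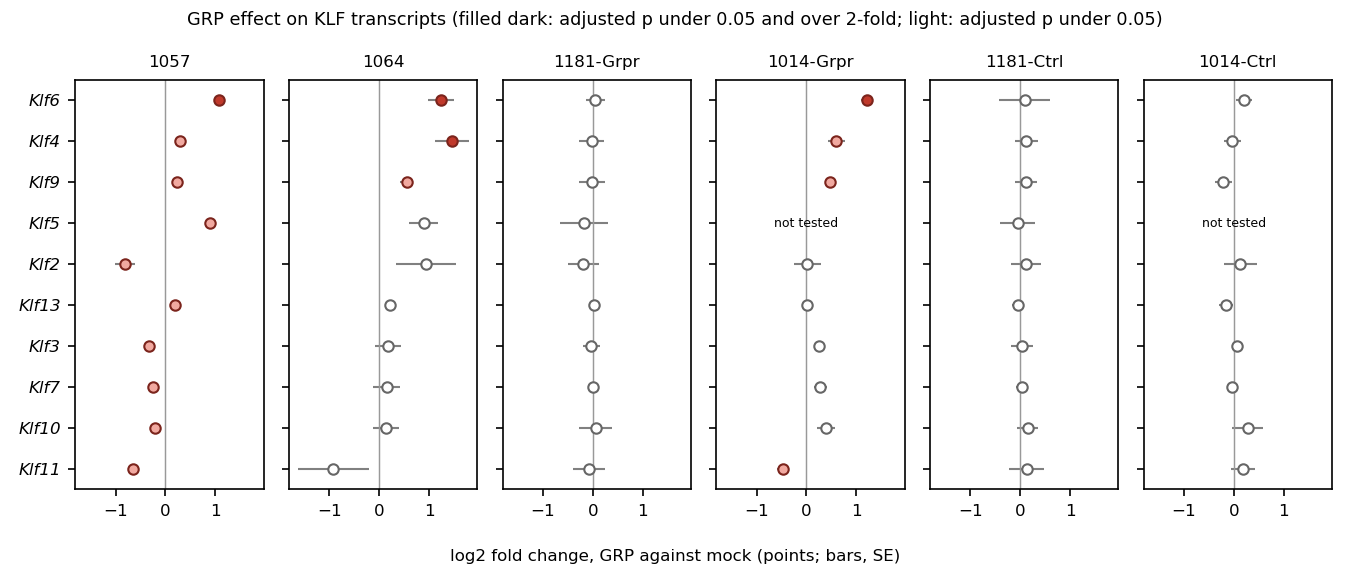
Log2 fold change of each Klf gene under GRP against mock (horizontal axis; points, with bars for the SE) in the 6 lines. Dark points passed an adjusted p of 0.05 and a 2-fold change, light points the adjusted p alone, and open points neither. Klf6 is dark in 1057 (1.07), 1064 (1.24) and 1014-Grpr (1.21), Klf4 in 1064 (1.46), and all points of 1181-Grpr, 1181-Ctrl and 1014-Ctrl are open.

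Among the other activators, Klf5 went from 3.40, 3.34 and 3.70 CPM to 6.16, 6.41 and 6.43 CPM in 1057, a log2 change of 0.89 (SE 0.100, adjusted p = 5.28e-07). In 1064 its mock libraries lay at 3.18, 1.38 and 1.96 CPM and its GRP libraries at 4.24, 4.66 and 3.24 CPM, a difference of 0.89 with an adjusted p of 0.108, and of 0.0116 with the block. Klf5 in 1014-Grpr did not exceed 0.366 CPM in any library.

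Klf2 fell in 1057 from 1.65, 2.11 and 1.28 CPM to 0.821, 0.941 and 1.06 CPM (-0.81, SE 0.206, adjusted p = 0.00297). In 1064 it lay at 2.56, 0.847 and 1.55 CPM under mock and at 4.24, 1.79 and 3.52 CPM under GRP, higher in each of the 3 numbered pairs though the groups overlapped (0.94, adjusted p = 0.398, and 0.00766 with the block). The effects of 1057 and 1064 differed by -1.76 (SE 0.651, adjusted p = 0.255), and by -1.79 with the block (adjusted p = 6.85e-04). Klf2 is a low gene, with 10 to 99 counts per library in the whole series.

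Klf7, which fell in 1057 from 67.1, 69.0 and 72.1 to 59.5, 55.2 and 57.2 CPM (-0.25, SE 0.0488, adjusted p = 2.87e-04), lay at 20.1, 22.0 and 19.0 CPM under mock and at 21.3, 28.3 and 24.2 CPM under GRP in 1014-Grpr (0.28, adjusted p = 0.143, and 0.00396 with the block). In 1064 it lay at 51.7, 41.0 and 29.7 CPM under mock and at 56.0, 46.5 and 33.4 CPM under GRP (0.15, adjusted p = 0.804, and 0.0367 with the block). Exons of genes on the opposite strand cover 39.4% of its exonic length, and the strand setting of the counting is not given in the sources used here, so its reads and theirs cannot be told apart. For Klf3 the overlap is 3.59%, and for the other members 0.

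Klf3 followed the same pattern. It fell in 1057 from 158, 166 and 165 CPM to 131, 124 and 127 CPM (-0.33, SE 0.0326, adjusted p = 1.06e-07), and in 1014-Grpr it lay at 72.6, 81.6 and 76.9 CPM under mock and at 76.3, 93.7 and 105 CPM under GRP (0.26, adjusted p = 0.0571, and 6.65e-04 with the block). Only its first GRP library there lay within the mock range. In 1064 its mock libraries at 81.6, 101 and 66.5 CPM and its GRP libraries at 92.6, 112 and 76.6 CPM overlapped (0.18, adjusted p = 0.754, and 0.0324 with the block), each GRP library being above the mock library of its number.

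Of the Sin3a-binding members, Klf9 rose in all 3 responding lines. In 1014-Grpr it went from 28.3, 27.2 and 31.8 CPM to 36.7, 40.8 and 43.5 CPM (0.48, SE 0.102, adjusted p = 0.00381). In 1064 it went from 31.9, 38.4 and 38.8 CPM to 43.5, 61.1 and 54.6 CPM (0.55, SE 0.133, adjusted p = 0.0377), which no longer passed without any 1 of the replicate numbers and had an adjusted p of 3.68e-04 with the block. In 1057 it went from 58.9, 60.7 and 62.3 CPM to 69.5, 68.2 and 73.5 CPM (0.24, SE 0.0408, adjusted p = 6.09e-05).

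Klf11 fell in 1057 from 9.68, 8.73 and 7.94 CPM to 5.82, 5.26 and 5.44 CPM (-0.65, SE 0.0948, adjusted p = 1.32e-05), and in 1014-Grpr from 10.6, 13.4 and 14.8 CPM to 8.38, 9.44 and 9.95 CPM (-0.47, SE 0.129, adjusted p = 0.0169). The 1014-Grpr change was no longer past the adjusted p without replicate 2 or replicate 3, at -0.46 and -0.42. In 1064 the mock values of 10.2, 27.1 and 7.50 CPM and the GRP values of 2.95, 14.4 and 6.09 CPM overlapped widely, yet each GRP library was below the mock library of its number (-0.92, adjusted p = 0.512, and 0.00354 with the block).

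Klf10 fell by a small amount in 1057, from 65.0, 64.3 and 64.7 CPM to 55.0, 57.3 and 51.0 CPM (-0.22, SE 0.0391, adjusted p = 1.09e-04). In 1014-Grpr it lay at 34.9, 33.9 and 45.5 CPM under mock and at 41.0, 45.2 and 62.5 CPM under GRP (0.39, adjusted p = 0.133, and 1.22e-06 with the block), each GRP library being above the mock library of its number. Klf13 rose by 0.19 in 1057 (SE 0.0333, adjusted p = 8.13e-05) and differed by 0.21 in 1064 (adjusted p = 0.252, and 0.0158 with the block) and by 0.01 in 1014-Grpr.

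For Klf3, Klf7 and Klf10 the GRP effect in 1057 was set directly against that in 1014-Grpr, a comparison chosen after the values were seen. It was -0.60 for Klf3 (SE 0.0982, adjusted p = 1.22e-04), -0.54 for Klf7 (SE 0.138, adjusted p = 0.00825) and -0.63 for Klf10 (SE 0.197, adjusted p = 0.031). These were 3 of 10 members, against 15.1% of the 15538 genes tested. The Klf3 difference passed without any 1 replicate number. Klf7 did not pass without replicate 2 (-0.48) or 3 (-0.42), nor Klf10 without replicate 1 (-0.68) or 2 (-0.67). Under the block 6 of 10 passed, Klf2, Klf9 and Klf13 in addition, against 28.2% of genes, although the numbers do not pair the libraries of 1057. For Klf6 and Klf4 the differences of -0.15 (SE 0.132, adjusted p = 0.528) and -0.31 (SE 0.176, adjusted p = 0.282) did not pass. Between 1057 and 1064, edgeR passed 0 of 10 members and 1.3% of genes, with 3 members under an unadjusted p of 0.05 and 1 passing by DESeq2. The unadjusted and DESeq2 counts are given without the share of all genes under the same rules. Under the block 5 passed, against 16.6% of genes: Klf2 (-1.79), Klf4 (-1.14), Klf3 (-0.52), Klf7 (-0.42) and Klf9 (-0.31).

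**Figure D4:**
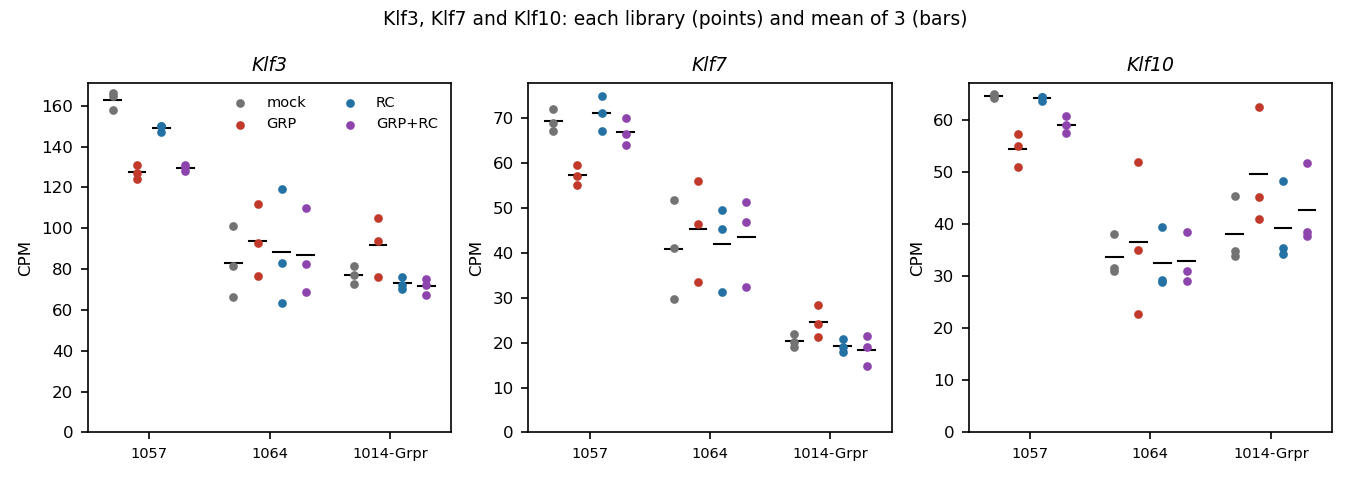
CPM (linear axis from 0) of Klf3, Klf7 and Klf10 in each library (points, coloured by treatment), with short bars at the mean of 3, in 1057, 1064 and 1014-Grpr. In 1057 the GRP libraries lie below the mock libraries for all 3 genes. In 1014-Grpr the GRP means are higher than the mock means.

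Whether the GRP effect needs the receptor was asked by setting the effect in 1014-Grpr against that in 1014-Ctrl. In 1014-Ctrl, Klf6 lay at 81.1, 53.5 and 94.5 CPM under mock and at 90.6, 84.0 and 89.3 CPM under GRP, the mock value of 53.5 being that of the library that goes against its label. The effects differed by 1.01 (SE 0.205, adjusted p = 0.00243), and by 1.22 (adjusted p = 1.17e-05) without that library. Klf6 was the 1 member of 9 called, against 3.89% of 14204 genes, and 2 of 9 passed the adjusted p alone, against 13.6%. Under the block its difference was 0.98, short of 2-fold, with an adjusted p of 4.78e-04, and without replicate 3 it was 0.74 and did not pass.

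For Klf9 the difference was 0.68 (SE 0.211, adjusted p = 0.0358), a value that no longer passed when any 1 replicate number was left out (0.47 to 0.87). The mock library in doubt held the highest Klf9 value of its group, 37.3 CPM beside 25.1 and 31.8, and without it the difference was 0.55 (adjusted p = 0.0685), or 0.54 with the block in addition (adjusted p = 1.71e-04). Klf4 and Klf11 differed by 0.63 (adjusted p = 0.0962) and -0.65 (adjusted p = 0.138). With the block these had adjusted p-values of 0.00722 and 0.0193, so that 4 of 9 members passed under it, against 26.8% of genes. Without the doubted mock library 1 of 9 passed, against 16.8% of genes, and with the block in addition 7 of 9, against 39.3%, Klf3 (0.25), Klf7 (0.28) and Klf10 (0.44) among them. Between 1181-Grpr and 1181-Ctrl the differences ran from -0.32 to 0.06 and edgeR passed 0 of 10 members, 0 of them under an unadjusted p of 0.05 (0.386% of genes) and 0 by DESeq2 or limma.

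Adding RC to GRP asks how much of the response the antagonist removes. In 1014-Grpr, Klf6 fell to 99.4, 124 and 120 CPM under GRP+RC from 177, 242 and 233 CPM under GRP (-0.92, SE 0.118, adjusted p = 4.03e-04). Against mock its difference was 0.29 (SE 0.118, adjusted p = 0.355, and 0.00575 with the block). Klf9 fell to 30.2, 25.0 and 29.1 CPM (-0.52, SE 0.102, adjusted p = 0.00589), inside and below its mock range of 27.2 to 31.8 CPM. Klf3 fell to 67.4, 72.3 and 74.9 CPM (-0.36, SE 0.0936, adjusted p = 0.028), which with Klf6 and Klf9 made 3 of 9 members, against 11.8% of genes, and 0 of 9 were also past 2-fold (1.73%). Klf9 and Klf3 no longer passed without replicate 2 or 3. Under the block 7 of 9 passed, against 38.7% of genes. Against mock, GRP+RC differed for 0 of 9 members (0.947% of genes, 0.189% with 2-fold), and for 2 of 9 under the block (17.3%). In that contrast 1 member was under an unadjusted p of 0.05, given without the share of all genes, and 0 passed by DESeq2 or limma.

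In 1057, where the effect of adding RC was not tested against that in 1014-Grpr, Klf6 lay at 84.7, 86.3 and 85.6 CPM under GRP+RC, below all GRP and above all mock libraries (-0.29 against GRP, SE 0.0483, adjusted p = 1.57e-04, and 0.77 against mock, SE 0.0505, adjusted p = 6.58e-10). Klf5 lay between as well, at 4.73, 4.81 and 5.44 CPM (-0.37 against GRP, adjusted p = 0.00728). Klf7 returned to 63.9, 66.5 and 70.1 CPM (0.20 against GRP, adjusted p = 0.00574), whereas Klf3 stayed at 128, 131 and 130 CPM (0.00 against GRP, SE 0.0328). Altogether 5 of 10 members differed between GRP+RC and GRP, against 24.7% of genes, and 8 of 10 differed between GRP+RC and mock, against 44.3%. No change of either contrast reached 2-fold, where 1.02% and 3.47% of genes did.

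Klf4 in 1057 went the other way. It lay at 20.7 to 23.6 CPM under mock, at 26.3 to 26.9 under GRP, at 31.8, 31.3 and 32.2 under RC alone and at 33.2, 32.9 and 33.5 under GRP+RC, and the ranges of these 4 treatments did not overlap. RC alone raised it by 0.52 (SE 0.0478, adjusted p = 2.89e-07), and GRP+RC exceeded GRP by 0.30 (SE 0.0467, adjusted p = 1.06e-04). Klf9 shared part of this pattern: against the same mock libraries its change was 0.24 under GRP, 0.24 under RC (adjusted p = 2.37e-04) and 0.24 under GRP+RC (adjusted p = 1.13e-04). Klf6 and Klf5 also rose under RC alone, each by 0.35 (adjusted p = 6.09e-05 and 0.0222), and Klf3 fell by 0.14 (adjusted p = 0.00504). These were 5 of 10 members, against 24.3% of genes, all short of 2-fold (0.888%).

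RC alone changed no member in 1064 or 1014-Grpr. In 1064 and 1014-Grpr edgeR passed 0 members and 0 genes, with 0 members under an unadjusted p of 0.05 and 0 passing by DESeq2 or limma. Klf4 in 1064 lay at 30.5, 27.5 and 13.7 CPM under RC beside 17.0, 18.3 and 15.5 CPM under mock (0.49, SE 0.334), and at 34.1, 29.7 and 15.3 CPM under GRP+RC, with replicate 3 low in both. For GRP+RC against GRP in 1064 edgeR passed 0 of 10 members and 0.029% of genes (0.0145% with 2-fold), with 5 members under an unadjusted p of 0.05 and 1 called by DESeq2. The unadjusted and DESeq2 counts are given without the share of all genes under the same rules, and 0.029% is not that share. Under the block 6 of 10 passed, against 21.2% of genes: Klf5 (-1.15), Klf4 (-0.87), Klf2 (-0.78), Klf6 (-0.75), Klf9 (-0.33) and Klf13 (-0.27).

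**Figure D5:**
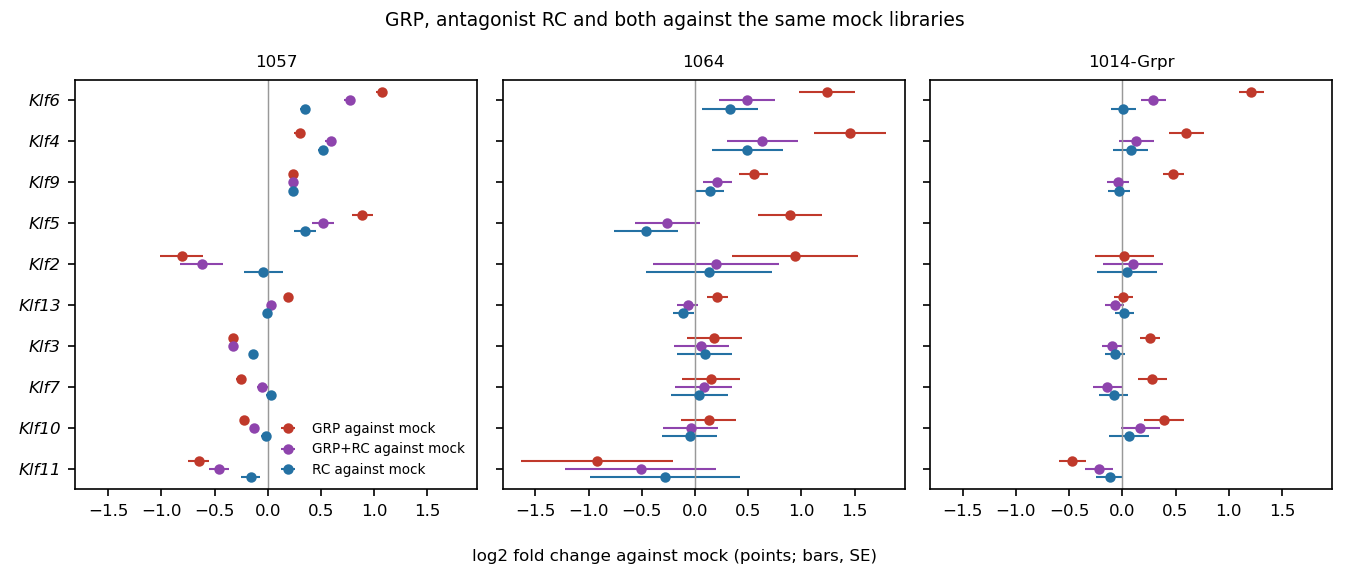
Log2 fold change against mock (horizontal axis; points, with bars for the SE) of each Klf gene under GRP, GRP+RC and RC in 1057, 1064 and 1014-Grpr; the 3 contrasts of a line share their mock libraries. In 1014-Grpr the GRP+RC point of Klf6 (0.29) lies nearer to RC (0.01) than to GRP (1.21), and in 1057 the GRP+RC point of Klf6 (0.77) lies nearer to GRP (1.07) than to RC (0.35), and that of Klf4 (0.59) lies above both.

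Of the 7 other Klf genes, 4 were tested in 1057, 2 in 1064 and 4 in 1014-Grpr, and 2 were called at least once. The calls numbered 1, 1 and 0 in these lines, where 6.46%, 2.32% and 4.01% of all genes were called. Klf15, a metabolic and glucocorticoid-responsive factor, fell in all 3 lines. In 1064 it went from 20.7, 28.8 and 28.9 CPM to 9.76, 11.1 and 16.3 CPM (-1.07, SE 0.277, adjusted p = 0.0468). It fell by 0.98 in 1014-Grpr (SE 0.194, adjusted p = 0.0026) and by 0.41 in 1057 (SE 0.0403, adjusted p = 8.64e-08), in both without overlap of the mock and GRP libraries. In 1014-Grpr RC brought it back up by 0.66 (adjusted p = 0.048). Klf12, a CtBP-binding repressor, was called in 1057, from 0.643, 0.465 and 0.642 CPM to 1.16, 1.23 and 1.28 CPM (1.09, SE 0.252, adjusted p = 0.00128).

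Among the 9 SP genes, which bind the same GC-rich sites, 1 of 6 tested was called in 1057, 0 of 6 in 1064 and 0 of 5 in 1014-Grpr. Over all genes 6.46%, 2.32% and 4.01% were. Sp5 fell in 1057 from 15, 21.6 and 20.8 CPM to 6.81, 9.12 and 7.48 CPM (-1.26, SE 0.163, adjusted p = 3.15e-06). Of 18 partner and regulator genes, all tested, 0 were called in 1057, 1 in 1064 and 1 in 1014-Grpr, against the same shares of all genes. The gene called was Srf, whose product binds the CArG box of many immediate-early genes. It went from 66.1, 54.7 and 59.5 CPM to 164, 180 and 139 CPM in 1014-Grpr (1.43, SE 0.106, adjusted p = 2.45e-06). In 1064 it went from 74.5, 46.5 and 69.0 CPM to 324, 167 and 144 CPM (1.75, SE 0.387, adjusted p = 0.0268), and in 1057 it rose by 0.16 (adjusted p = 0.00143).

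Of 14 genes known as KLF targets in other cells, 4 of 10 tested were called higher in 1057, 3 of 11 in 1064 and 6 of 10 in 1014-Grpr. Over all genes 4.96%, 1.52% and 3.16% were, and 0 of the listed genes were called lower. The list was chosen with earlier results of these data known, so these counts cannot be read as an enrichment. Lgals3, Pdgfa and Plau were called in all 3 lines. Lgals3, which encodes galectin-3, went from 71.8, 61.8 and 55.4 CPM to 252, 282 and 268 CPM in 1057 (2.11, SE 0.0639). Pdgfa, a growth factor gene, went from 5.59, 6.93 and 6.66 CPM to 23.6, 37.8 and 29.6 CPM in 1014-Grpr (2.26, SE 0.229). Plau, the urokinase gene, changed by 1.29 in 1057, 3.78 in 1064 and 2.23 in 1014-Grpr, and in 1064 it started from at most 0.344 CPM. Cdkn1a, the p21 cell-cycle inhibitor, was called in 1014-Grpr (2.27, SE 0.143), as were Thbd (1.01) and Tagln (2.60), and S1pr1 was called in 1057 (1.38). These genes answer many regulators, and a part of the KLFs in their change was not tested.

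Over the 72 libraries, with each line centred on its own mean, the genes whose log2(CPM + 1) ran most like Klf6 were Tatdn2 and Mafk (Pearson's r of 0.92 for each, out of 12514 genes). For Klf11 they were Pnrc1 (0.90) and Fgfrl1 (0.88), for Klf4 Hivep2 (0.82) and Piezo1 (0.79), and for Klf9 Por (0.81) and Dvl1 (0.80). For Klf3 they were Rin2 (0.81) and St7l (0.80). For Klf10 they were Sntb2 (0.81) and Thap12 (0.79), whose r was 0.64 and 0.59 without the 2 libraries that go against their labels. For Klf2 they were Plekhg2 (0.74) and Sytl2 (0.73), for Klf7 Lrch3 (0.73) and Stam (0.71), for Klf5 Sik1 and Cfap43 (0.71 each), and for Klf13 Sod3 and Unc13b (0.70 each, and 0.59 each without those libraries). Between members, r was 0.63 for Klf3 with Klf7 and for Klf5 with Klf6, 0.60 for Klf3 with Klf11, 0.54 for Klf4 with Klf9 and -0.41 for Klf4 with Klf11 over the 70 other libraries. These describe points that share lines, treatments and libraries.

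The 2 doubted libraries also differed from their groups in KLF levels. The library labelled 1014-Ctrl mock replicate 2 had 13.3 CPM of Klf10 beside 39.4 and 41.2 in its group, and 53.5 CPM of Klf6. The library labelled 1181-Grpr GRP+RC replicate 2 had 33.9 CPM of Klf10 beside 15.4 and 21.6, and 96.5 CPM of Klf6 beside 65.7 and 69.7. The Klf10 and Klf6 values of each lay within the range of the other's line. Klf10 was at 12.3 to 22.6 CPM in the other libraries of 1181-Grpr and at 32.1 to 42.6 CPM in those of 1014-Ctrl. Not all members did so. Klf4 was at 43.1 CPM in the first library, against at most 40.7 in the other libraries of 1181-Grpr. It was at 45.2 CPM in the second, against at most 44.0 in those of 1014-Ctrl. Klf13 (99.4 CPM) and Klf5 (0.744 CPM) of the first library were also above the 1181-Grpr range. Whether the 2 libraries were exchanged was not tested, and both were kept under their labels. For GRP+RC against GRP in 1181-Grpr, the log2 differences of Klf6 and Klf10 were 0.32 and 0.40 with the doubted library and 0.12 and 0.03 without it. In that contrast edgeR passed 0 of 10 members both ways, with 0 under an unadjusted p of 0.05.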

How the data were processed

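In all, 72 RNA libraries (poly(A), stranded kit) were sequenced on NovaSeq. Per the labels and the study's methods, the authors aligned reads with STAR to mm10 with a GENCODE annotation and ran FastQC 0.11.5. They deposited raw counts per gene, used for every edgeR and DESeq2 test, and TPM, used to compare levels between genes and in the limma alternative. The deposited TPM of 1057 are written with a decimal comma.

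Samples were grouped by label. Each line was fitted alone in edgeR 4.0.16 (quasi-likelihood, TMM, filterByExpr, Benjamini-Hochberg over all genes tested), differences of effects and resting levels in joint fits. Printed CPM use TMM over all 72 libraries. Alternatives used DESeq2 1.42.0 and limma 3.58.1, the latter on log2(TPM + 1). The edgeR, DESeq2 and limma fits were tested on simulated data. No 2 replicates of a group agreed within sampling noise (lowest chi-square per degree of freedom 2.44). Pairs of 1057 reached at most 9.09, whereas pairs of the other lines lay between 10.8 and 188. Same-numbered libraries deviated together (every pair's correlation over 0.1) for GRP against mock in 5 lines, not in 1057, so the replicate number was added as a block and its values are given beside member results they change. Genes named in the text were all members and, of the other lists, those called under GRP in a line. The members and gene lists were chosen with earlier results of these data known, and the differences of 1057 from 1014-Grpr and 1064 were added after the data were seen. Promoter windows are RefSeq's. Positions are GENCODE's on GRCm38.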

Additional observations from a re-analysis of the deposited data

Results flagged for a closer look

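Klf6 and Klf9 are singled out because their GRP effects differed between 1014-Grpr and 1014-Ctrl by a test of the difference itself, at 1.01 and 0.68 on the log2 scale. The 1014-Ctrl mock group holds the library that goes against its label, and without it the differences were 1.22 and 0.55, the latter with an adjusted p of 0.0685.

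Klf3, Klf7 and Klf10 are listed because their GRP effects differed between 1057 and 1014-Grpr, by -0.60, -0.54 and -0.63 on the log2 scale. They fell in 1057. In 1014-Grpr their log2 changes of 0.26, 0.28 and 0.39 did not pass, and of 9 alternatives 3, 1 and 3 passed, the replicate block among them for each.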

How the results depend on the processing

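Of the 43 member values that passed an adjusted p of 0.05, none changed sign under any alternative run. All 43 still passed with DESeq2 size factors in edgeR and with the replicate block, 41 with DESeq2 and 38 with limma on TPM. Fewer passed when a replicate number was left out: 34 without number 1, 26 without number 2 and 33 without number 3. With the replicate block the Klf6 difference of 1014-Grpr from 1014-Ctrl was under 2-fold (0.98) and so no longer called. In 1 fit of all 72 libraries, 33 of the 38 values it gives no longer passed, and the cause was not tested.

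The 4 higher calls under GRP were 2 with limma on TPM and 2 to 4 without a replicate number, and 11 with the adjusted p alone. The lower calls, 0, were 0 to 1 without a replicate number and 6 with the adjusted p alone. For GRP+RC against GRP the higher calls went from 0 to 2 with the adjusted p alone, and the lower calls from 0 to 1 with DESeq2, 1 with the replicate block and 6 with the adjusted p alone. For GRP+RC against mock the adjusted p alone gave 4 higher and 4 lower, and for RC against mock 4 higher and 1 lower, from 0 in each. The 1 member whose GRP effect differed between Grpr and Ctrl versions became 0 with the replicate block, 0 with limma on TPM, 0 to 1 without a replicate number and 2 with the adjusted p alone. The 35 resting calls became 66 with the adjusted p alone. The counts of this paragraph follow the rule used and are given without shares of all genes. They are therefore not results about the members. Between 1057 and 1014-Grpr the replicate block moved the members passing from 0 to 1 higher and from 3 to 5 lower, and leaving out a replicate number gave 1 to 3 lower. Between 1057 and 1064 the lower count of 0 became 1 with DESeq2, 5 with the replicate block and 0 to 1 without a replicate number.

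Depth limits Klf5 in 1014-Grpr and Klf2 throughout, and 3 libraries a group limit every test.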
